A study of Mus musculus with 6 samples.

Results

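The genes described here are 38 components of the BMP and TGF-β signalling pathways, namely their ligands, receptors, secreted modulators, SMAD proteins, SMAD-directed ubiquitin ligases and the ID target genes. They were taken by gene symbol, whatever their count, from a list made with earlier results of these data known. All 38 were among the 55416 genes of the count table. Transcripts were measured in coronary ECs from E15.5 heart ventricles by RNA-Seq, with 3 libraries from *ControlΔEC* embryos (Pdgfb-CreERT2/+; Wt1-+/+; R26-mTmG/+) and 3 from *Wt1KOΔEC* embryos (Pdgfb-CreERT2/+; Wt1-LoxP/LoxP; R26-mTmG/+). Both genotypes carried the Pdgfb-driven CreERT2 and the mTmG reporter, and both received tamoxifen through the dam at 75 mg/kg between E11.5 and E13.5. The *ControlΔEC* embryos had 2 wild-type *Wt1* alleles rather than unrecombined LoxP alleles. Cells were sorted for mGFP, which marks any cell in which Cre recombined. In the paper, staining at E15.5 placed mGFP in coronary vessels, with none seen in ventricular endocardium or epicardium. It also reports relatively low counts for cardiomyocyte, epicardial and fibroblast genes in the sorted cells. *Wt1* encodes a zinc finger transcription factor, and the comparison asks which transcripts differ when coronary ECs have lost it. The labels call the 3 libraries of a genotype biological replicates but do not say whether embryos were pooled. The paper describes a cross that gave both genotypes within a litter. Which libraries share a litter is not stated, and the main fit had no term for it.

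BMP and TGF-β ligands are secreted dimers that bring together type I and type II receptor kinases. The type I receptor then phosphorylates receptor-activated SMADs, which join SMAD4 and enter the nucleus. In ECs, BMP9 (encoded by *Gdf2*) and BMP10 signal through the type I receptor ALK1 (encoded by *Acvrl1*) with the co-receptor endoglin, and this branch is known for its role in vessel remodelling and quiescence. The ID genes are classical direct targets of BMP-activated SMADs, and SMAD6, SMAD7 and the SMURF ligases dampen the pathway.

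The libraries held between 26037324 and 44779020 counts, and a gene with 3 counts would be at 0.0608 to 0.119 CPM, the count scaled to the library total with TMM normalization. Such a floor covers counting error only. *Wt1* was at 145, 109 and 149 CPM in *ControlΔEC* and at 14.0, 18.4 and 21.3 CPM in *Wt1KOΔEC*, a log2 fold change of −2.91 (SE 0.22, adjusted p = 0.00319 in edgeR). In edgeR, 12 of the 16296 genes tested were DEGs, that is genes whose adjusted p was under 0.05 and whose log2 fold change exceeded 0.58 in size. All 10 EC markers were tested and none was a DEG, and their summed level lay between 5973 and 7452 CPM in *ControlΔEC* and between 6089 and 6981 CPM in *Wt1KOΔEC*. Markers of other cells were present: erythroid markers summed to between 6565 and 14339 CPM in *ControlΔEC* and between 5106 and 8492 CPM in *Wt1KOΔEC*. The library identifiers start with different letters in the genotypes, and a batch that followed the genotype cannot be told apart from it.

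The DNA just upstream of 4 of the genes is shown because these are the receptors and targets at an unadjusted p under 0.05: *Bmpr2* and *Acvr2a*, lower in *Wt1KOΔEC*, and *Id2* and *Id3*, higher. Each sequence is the 250 bases before the RefSeq start of the gene in GRCm38.p6, written 5′ to 3′ on the gene's strand. Capitals mark GGCGCC, a GC-rich element to which BMP-activated SMADs are known to bind.
Bmpr2, chr1:59764029-59764278 (plus strand): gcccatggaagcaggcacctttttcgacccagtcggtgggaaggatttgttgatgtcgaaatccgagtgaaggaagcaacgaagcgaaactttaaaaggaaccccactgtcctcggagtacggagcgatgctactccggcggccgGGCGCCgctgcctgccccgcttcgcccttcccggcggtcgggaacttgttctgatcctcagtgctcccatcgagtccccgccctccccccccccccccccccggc
Acvr2a, chr2:48813859-48814108 (plus strand): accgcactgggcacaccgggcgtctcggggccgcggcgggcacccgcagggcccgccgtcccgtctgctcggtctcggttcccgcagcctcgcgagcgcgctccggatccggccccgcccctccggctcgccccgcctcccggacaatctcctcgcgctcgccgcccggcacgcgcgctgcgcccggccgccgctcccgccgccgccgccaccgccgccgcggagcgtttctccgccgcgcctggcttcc
Id2, chr12:25096093-25096342 (minus strand): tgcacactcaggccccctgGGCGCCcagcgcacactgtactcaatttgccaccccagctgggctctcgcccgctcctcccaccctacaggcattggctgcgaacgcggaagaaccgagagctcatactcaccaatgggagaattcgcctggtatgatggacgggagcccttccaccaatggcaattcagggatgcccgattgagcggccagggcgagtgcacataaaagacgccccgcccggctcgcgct
Id3, chr4:136143572-136143821 (plus strand): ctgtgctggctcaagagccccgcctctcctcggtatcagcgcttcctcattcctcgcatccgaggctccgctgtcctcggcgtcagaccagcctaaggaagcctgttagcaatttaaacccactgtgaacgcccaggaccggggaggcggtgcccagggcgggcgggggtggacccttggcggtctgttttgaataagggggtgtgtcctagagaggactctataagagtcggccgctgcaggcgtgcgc
GGCGCC, which reads alike on both strands, was present in the *Id2* and *Bmpr2* windows and was not among the letters of the *Id3* and *Acvr2a* windows. Promoters were held for 28 of the 38 genes, 33 promoters in all, and 9 of the 33 (27.3%) contained GGCGCC, against 9.59% of 32851 promoters of the same length. These 9 belonged to *Bmpr1a*, *Bmpr2*, *Grem1*, *Id2*, *Id4*, *Smad5*, *Smad9*, *Smurf2* and *Tgfbr1*, a set that holds genes higher and genes lower in *Wt1KOΔEC* as well as *Grem1*, which was too low to test. On either strand, CAGACA, which contains the core of the SMAD3 and SMAD4 element, was found in 15.2% of the 33 promoters against 17.1% of all. The WT1 and EGR type motif GCGTGGG was found in 6.06% (*Tgfb1* and *Tgfbr2*) against 4.30%, and GCGGGGGCG in 3.03% (*Tgfbr1*) against 2.57%. The palindromic SMAD element GTCTAGAC was in 0 of the 33 and in 0.167% of all. No motif contains another, and a match in such a window is a description of its letters.

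Across the pathway, 29 genes had more than 3 counts in every library, and the levels ranged from *Eng*, at a mean of 1427 CPM in *ControlΔEC*, to genes at the floor. *Bmp10* had no count in any library. *Bmpr1b* had 33 counts in *Wt1KOΔEC* replicate 2 and 0 in the other 5 libraries, and *Grem1* had 6 counts in *Wt1KOΔEC* replicate 3 and 0 elsewhere. These 3 genes were below the limit of 10 counts in at least 2 libraries, which left 35 genes tested. *Bmp5*, *Bmp7*, *Gdf2*, *Bmper*, *Nog* and *Smad9* were tested but had at most 3 counts in at least 1 library. For all of these but *Gdf2* the 95% interval of the difference reached beyond both −2 and 2 on the log2 scale. At −13.7 to −4.82 the interval of *Gdf2* was wide as well, and it rested on 0 counts in *Wt1KOΔEC*.

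**Figure D1:**
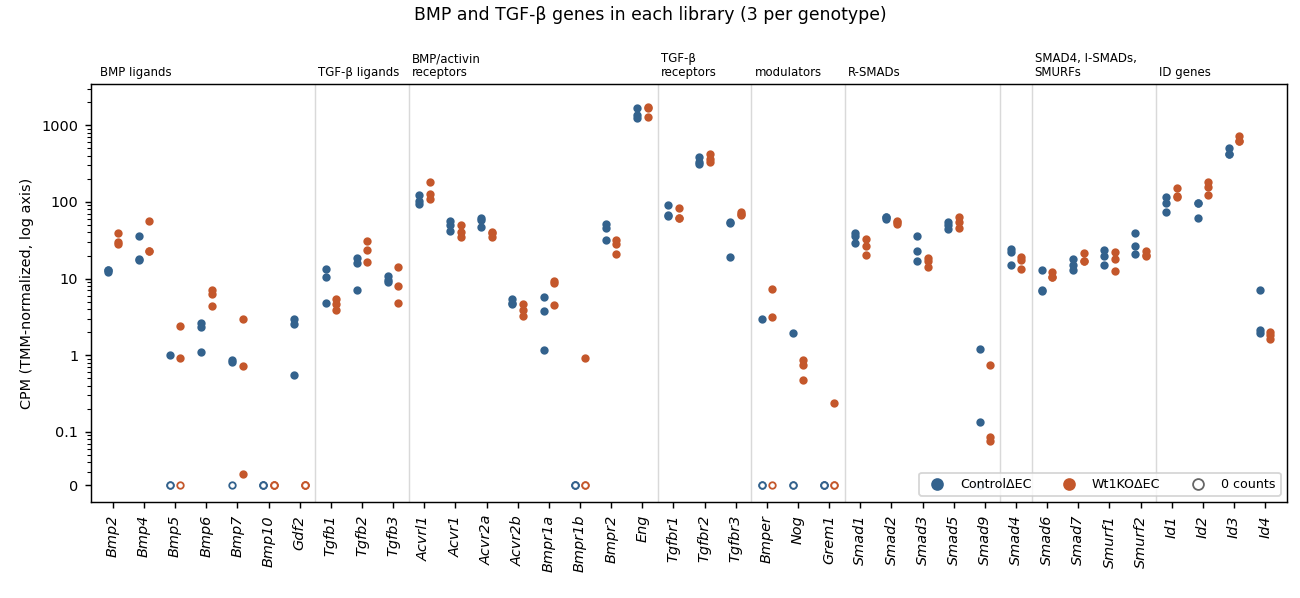
CPM of each of the 38 genes in each of the 6 libraries, on a log axis with 0 counts drawn as open points at the bottom; blue, *ControlΔEC*, and orange, *Wt1KOΔEC*. *Eng*, *Id3* and *Tgfbr2* lie at the top, *Bmp10* is at 0 in all libraries, and *Gdf2* has counts in *ControlΔEC* only.

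By edgeR, 0 of the 35 genes were DEGs (where 0.0736% of all genes tested were), and their adjusted p-values ran from 0.108 (*Bmp2*) to 0.991 (*Nog*). At an unadjusted p under 0.05, 8 of the 35 (22.9%) were called against 13.1% of all genes tested: *Bmp2*, *Bmp6*, *Id2* and *Id3* were higher in *Wt1KOΔEC* and *Gdf2*, *Tgfb1*, *Acvr2a* and *Bmpr2* lower. This count was 5 without *Wt1KOΔEC* replicate 1. *Gdf2* passed the filter on low counts through *ControlΔEC* alone and so had to differ; without it, 7 of 34 genes (20.6%) were called. The genotypes did not overlap for 11 of the 35 (31.4%) against 19.3% of all genes tested, the higher ones being *Bmp2*, *Bmp6*, *Tgfbr3*, *Id1*, *Id2* and *Id3* and the lower ones *Gdf2*, *Acvr2a*, *Acvr2b*, *Bmpr2* and *Smad2*, or 10 of 34 (29.4%) without *Gdf2*. In limma-voom, 0 of the 35 were DEGs. DESeq2, the tool the study's methods name, called *Bmp2*, *Gdf2* and *Id2* as DEGs (3 of the 34 genes with an adjusted p, 8.82%, against 4.83% of all genes with one), or 2 of 33 (6.06%) without *Gdf2*. In all, 19 of the 35 genes were higher and 16 lower, with a median log2 fold change of 0.11 against −0.027 over all genes tested. With 3 libraries against 3, the two-sided exact permutation test of a single gene cannot give a p below 0.1, and it gave 0.1 for each of the 11 genes without overlap.

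**Figure D2:**
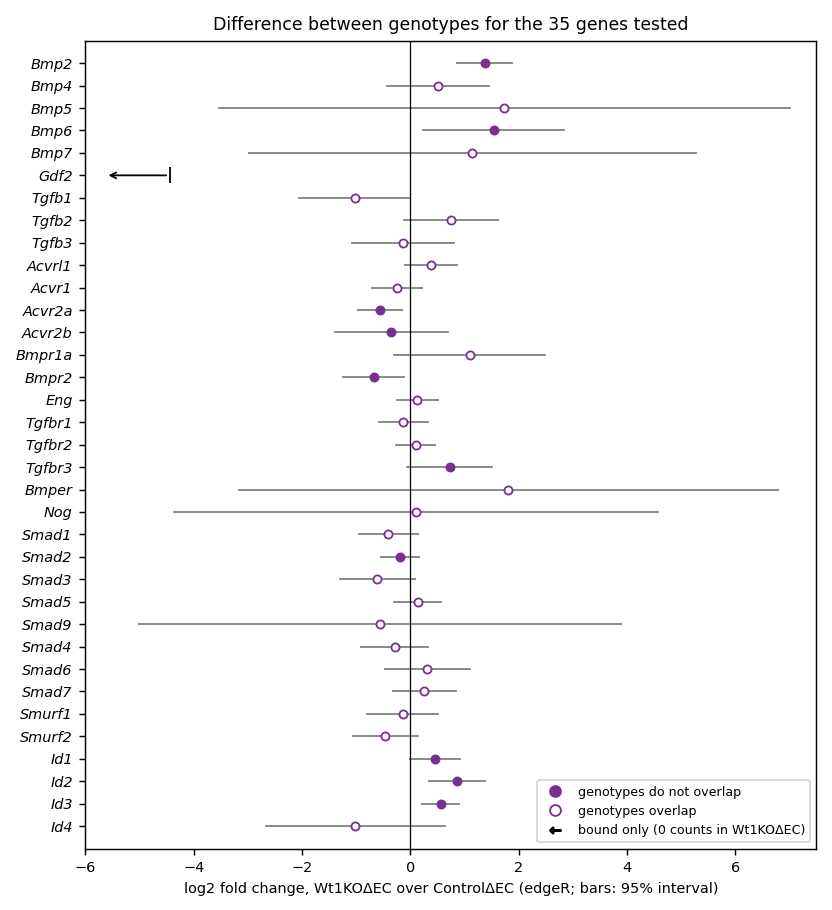
Fitted log2 fold change of the 35 genes tested, *Wt1KOΔEC* over *ControlΔEC*, with 95% intervals from edgeR; filled points mark genes whose 3 libraries of one genotype do not overlap those of the other, and the arrow marks the bound for *Gdf2*. Filled points lie on both sides of 0, with *Bmp2* at 1.37 and *Bmpr2* at −0.68.

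Among the BMP ligands, *Bmp2* varied little between the *ControlΔEC* libraries. Its levels were 12.8, 12.9 and 12.1 CPM in *ControlΔEC* and 39.1, 30.3 and 28.2 CPM in *Wt1KOΔEC*. Every *Wt1KOΔEC* library was above every *ControlΔEC* library, and the log2 fold change was 1.37 (95% interval 0.86 to 1.89, adjusted p = 0.108 in edgeR, 1.27e-06 in DESeq2). It lay between 1.22 and 1.46 when any 1 library was left out. As these are bulk libraries, a change in the number of cells of a type and a change in RNA per cell cannot be told apart. *Bmp6*, a further BMP ligand made by ECs, was at 1.10, 2.35 and 2.67 CPM in *ControlΔEC* and at 6.29, 4.38 and 7.08 CPM in *Wt1KOΔEC*, also without overlap, with a log2 fold change of 1.54 (95% interval 0.24 to 2.83, adjusted p = 0.309). *Bmp4*, the BMP ligand with the highest level per kb over all 6 libraries but below *Bmp2* in the *Wt1KOΔEC* mean (6.48 against 7.02 CPM per kb), was at 18.2, 17.3 and 35.7 CPM against 22.9, 56.0 and 23.1 CPM. The genotypes overlapped for *Bmp4* and 1 library in each was apart from the other two; its log2 fold change of 0.52 (SE 0.42) became −0.045 without *Wt1KOΔEC* replicate 2.

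*Gdf2* went the other way. It had 132, 127 and 16 counts (2.95, 2.57 and 0.555 CPM) in *ControlΔEC* and 0 counts in all 3 *Wt1KOΔEC* libraries. Taken against the floor of 3 counts per library, it was at least 21.7-fold lower, and at least 16.8-fold lower without *ControlΔEC* replicate 1. It passed the filter on low counts through the *ControlΔEC* libraries alone, so its p-values are not given as support. The third *ControlΔEC* library was well below the other two and still above the floor. *Gdf2* is known chiefly as a hormone-like product of the liver, and its level here was low in both genotypes. *Bmp5* was at 0, 0 and 1.01 CPM against 0, 0.926 and 2.41 CPM, and *Bmp7* at 0, 0.810 and 0.866 CPM against 2.97, 0.0281 and 0.712 CPM, and neither separated the genotypes.

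Summed per kb of exonic length, the BMP ligands came to 7.48, 7.71 and 10.7 CPM per kb in *ControlΔEC* and 15.1, 18.6 and 13.1 CPM per kb in *Wt1KOΔEC*. The genotypes did not overlap in this sum. *Bmp2* and *Bmp4* together made most of it in every library: *Bmp2* was 36.8%, 36.1% and 24.3% of the sum in *ControlΔEC* and 55.9%, 35.2% and 46.7% in *Wt1KOΔEC*. *Gdf2* was 12.9%, 10.9% and 1.69% of the *ControlΔEC* sums. Fibroblast markers were also higher in the *Wt1KOΔEC* libraries, where their summed level lay between 1401 and 1629 CPM against 755 to 1045 CPM in *ControlΔEC*. Of the 9, 5 were at an unadjusted p under 0.05, all higher, while *Postn*, *Lum* and *Gsn* had log2 fold changes of −0.16, 0.037 and 0.043. The paper counts *Col1a1*, *Col3a1* and *Dcn*, all on this list, as venous markers. The 6 endocardial markers in the files summed to between 290 and 381 CPM in *ControlΔEC* and between 623 and 758 CPM in *Wt1KOΔEC*. Of the 6, 4 were at an unadjusted p under 0.05, all higher. Much of this gap lay in *Plvap*, a DEG in edgeR (adjusted p = 0.00319), at 63.1, 82.7 and 58.4 CPM against 331, 361 and 321 CPM. *Nfatc1*, the highest of the 6 in *ControlΔEC*, overlapped, at 170, 131 and 253 CPM against 202, 242 and 213 CPM. The sums of epicardial markers did not overlap either (37.8 to 49.2 CPM against 66.8 to 75.7 CPM, 2 of 8 higher at an unadjusted p under 0.05). *Clu*, the highest of these 8, overlapped, at 36.3, 26.1 and 29.8 CPM against 20.4, 49.3 and 39.9 CPM. *Dmkn* and *Aldh1a2* had log2 fold changes of −0.34 and −0.049. The sums of lymphatic EC markers nearly touched, at 274 to 283.0 CPM against 283.6 to 384 CPM, with 1 of 5 higher at that p. *Flt4*, the highest of these 5, overlapped, at 230, 260 and 223 CPM against 290, 282 and 219 CPM. No marker of these 4 lists was at 0 in all libraries, and the part of these cells in the BMP ligand levels was not tested.

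**Figure D3:**
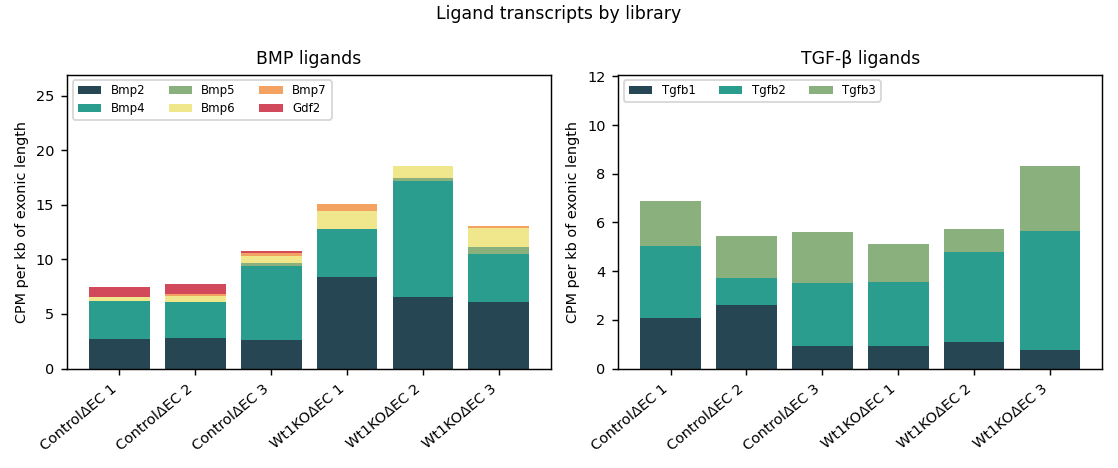
Summed level of the BMP ligands (left) and TGF-β ligands (right) in each library, in CPM per kb of exonic length, divided by gene. The BMP ligand sum is 7.48 to 10.7 in *ControlΔEC* and 13.1 to 18.6 in *Wt1KOΔEC*, while the TGF-β ligand sums overlap, at 5.46 to 6.87 and 5.10 to 8.33.

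The 3 TGF-β ligands summed to 6.87, 5.46 and 5.60 CPM per kb in *ControlΔEC* and 5.10, 5.72 and 8.33 CPM per kb in *Wt1KOΔEC*, so that the sums overlapped. *Tgfb1* was at 10.5, 13.2 and 4.82 CPM in *ControlΔEC* and at 4.68, 5.47 and 3.84 CPM in *Wt1KOΔEC*. The third *ControlΔEC* library lay within the *Wt1KOΔEC* range; the log2 fold change was −1.03 (95% interval −2.06 to −0.0006, adjusted p = 0.382) and ran from −1.34 to −0.72 when 1 library was left out. Macrophages are a known source of *Tgfb1*, and the 7 macrophage markers had the same order as *Tgfb1* among the *ControlΔEC* libraries and another among the *Wt1KOΔEC* libraries: their summed level was 349, 744 and 249 CPM in *ControlΔEC* and 266, 228 and 196 CPM in *Wt1KOΔEC*. Of the 7, 3 were at an unadjusted p under 0.05, all lower, and none was at 0; their part in the *Tgfb1* level was not tested. *Tgfb2*, the highest TGF-β ligand per kb, was at 18.6, 7.07 and 16.1 CPM against 16.4, 23.3 and 30.6 CPM (log2 fold change 0.75, SE 0.39, adjusted p = 0.463; 0.44 without *ControlΔEC* replicate 2), and *Tgfb3* had a log2 fold change of −0.13 (SE 0.42), which turned to 0.17 without *Wt1KOΔEC* replicate 2. The share of *Tgfb1* in the TGF-β ligand sum was 30.1%, 47.5% and 16.9% in *ControlΔEC* and 18.1%, 18.8% and 9.07% in *Wt1KOΔEC*, with overlap.

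The receptors of the BMP and ALK1 branch were led by *Eng*, the co-receptor endoglin. *Eng* was at 1680, 1239 and 1362 CPM in *ControlΔEC* and at 1719, 1674 and 1302 CPM in *Wt1KOΔEC*. The ranges overlapped nearly in full, and the difference in log2 level was 0.13 with a 95% interval of −0.25 to 0.52, or −0.014 when libraries were scaled by size only. *Acvrl1*, the ALK1 receptor itself, was at 122, 104 and 94.7 CPM against 180, 109 and 129 CPM (log2 fold change 0.38, 95% interval −0.091 to 0.86, adjusted p = 0.496), and 1 *Wt1KOΔEC* library lay within the *ControlΔEC* range; the log2 fold change was 0.15 without *Wt1KOΔEC* replicate 1. *Acvr1*, a type I receptor for BMP6 and BMP7, had a log2 fold change of −0.25 (SE 0.21). Among the type I receptors of this branch, *Acvrl1* made up 64.1%, 64.4% and 64.2% of the summed CPM per kb in *ControlΔEC* and 74.9%, 66.1% and 72.7% in *Wt1KOΔEC*, and *Acvr1* 33.9%, 34.9% and 32.1% against 23.3%, 27.8% and 22.5%. These shares did not overlap between the genotypes, although the levels of *Acvrl1* and *Acvr1* each did. *Bmpr1a* was low, at 3.78, 1.16 and 5.68 CPM against 4.58, 9.35 and 8.70 CPM, with a log2 fold change of 1.09 (SE 0.62), or 0.68 without *ControlΔEC* replicate 2.

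The 3 type II receptors of the BMP branch were each lower in all *Wt1KOΔEC* libraries than in any *ControlΔEC* library. None was a DEG, and the genotypes did not overlap, in either direction, for 19.3% of all genes tested. *Bmpr2*, the type II receptor that pairs with ALK1 for BMP9, was at 46.0, 32.1 and 52.3 CPM in *ControlΔEC* and at 28.7, 21.0 and 31.8 CPM in *Wt1KOΔEC*. The lowest *ControlΔEC* library, replicate 2, was just above the highest *Wt1KOΔEC* library, and the log2 fold change was −0.68 (95% interval −1.25 to −0.11, adjusted p = 0.307). *Acvr2a*, a type II receptor shared by activins and BMPs, was at 61.5, 47.3 and 59.1 CPM against 35.0, 38.9 and 40.2 CPM, with a log2 fold change of −0.56 (95% interval −0.97 to −0.15, adjusted p = 0.261). *Acvr2b*, its close relative, was at 4.69, 4.82 and 5.48 CPM against 3.86, 3.29 and 4.63 CPM (log2 fold change −0.35, SE 0.46). The lowest *ControlΔEC* and highest *Wt1KOΔEC* libraries of *Acvr2b* nearly touched. Together these 3 receptors summed to 9.06, 6.90 and 9.24 CPM per kb in *ControlΔEC* and to 5.40, 5.31 and 6.16 CPM per kb in *Wt1KOΔEC*. *Acvr2a* was the largest share in every library. With offsets for gene length and GC content in the fit, *Bmpr2* and *Acvr2a* had log2 fold changes of −0.40 and −0.34, and neither was at an unadjusted p under 0.05. The sum of mural cell markers was lower too, between 468 and 636 CPM in *ControlΔEC* and between 326 and 382 CPM in *Wt1KOΔEC*. Of the 8 tested, 4 were lower at an unadjusted p under 0.05, while *Acta2* and *Tagln* had log2 fold changes of −0.036 and 0.92. *Rgs5* was at 165, 26.8 and 163 CPM against 25.4, 17.9 and 19.4 CPM. Myh11, which defines smooth muscle, was at 0 in 4 of the 6 libraries. The paper names *Rgs5* and *Kcnj8*, both on this list, among arterial genes. The part of mural cells in the receptor levels was not tested. *Acvr2a* shares 3081 of its 10088 exonic bases with *Orc4* on the opposite strand, and since SMART-seq2 libraries do not mark strand, reads there cannot be assigned to either gene with certainty.

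None of the TGF-β receptors was at an unadjusted p under 0.05. *Tgfbr2*, the type II receptor for TGF-β and the highest of these per kb, was at 333, 387 and 316 CPM in *ControlΔEC* and at 362, 422 and 328 CPM in *Wt1KOΔEC*, a log2 difference of 0.10 (95% interval −0.26 to 0.46) that became −0.053 with libraries scaled by size only. *Tgfbr1*, the type I receptor ALK5, had a log2 difference of −0.13 (95% interval −0.58 to 0.32). *Tgfbr3*, the co-receptor betaglycan, was at 19.0, 54.9 and 53.4 CPM against 73.4, 68.8 and 68.6 CPM, without overlap, and its log2 fold change of 0.73 (SE 0.35, adjusted p = 0.420) was 0.38 without *ControlΔEC* replicate 1, the lowest library. The secreted modulators were low, and each was at 0 in some libraries. *Bmper*, which binds BMPs in the extracellular space, was at 0, 0 and 2.98 CPM against 3.15, 0 and 7.24 CPM. The antagonist *Nog* was at 0, 1.93 and 0 CPM against 0.742, 0.477 and 0.870 CPM.

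Of the receptor-activated SMADs, *Smad5* was highest per kb and *Smad2* highest in CPM over all 6 libraries, although the *Wt1KOΔEC* means in CPM were close, at 55.0 for *Smad5* and 54.6 for *Smad2*. *Smad5*, which carries BMP signals, was at 44.5, 50.2 and 54.9 CPM in *ControlΔEC* and 45.2, 64.6 and 55.1 CPM in *Wt1KOΔEC*, and its log2 difference was 0.14 (95% interval −0.29 to 0.57), or −0.0093 with libraries scaled by size only. *Smad2*, which carries TGF-β signals, was at 63.5, 59.8 and 63.8 CPM against 55.0, 51.5 and 57.2 CPM; the genotypes did not overlap, but the log2 difference was only −0.19 (95% interval −0.54 to 0.15, adjusted p = 0.683). *Smad1* had a log2 fold change of −0.41 (SE 0.24), or −0.25 without *Wt1KOΔEC* replicate 1. *Smad3* had one of −0.61 (SE 0.31, adjusted p = 0.457), which was −0.25 without *ControlΔEC* replicate 2, the library with the highest *Smad3* level. The common partner *Smad4* was at 24.4, 15.1 and 21.9 CPM against 17.4, 13.4 and 19.4 CPM, with overlap (log2 difference −0.29, 95% interval −0.91 to 0.33; −0.14 without *ControlΔEC* replicate 1).

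The inhibitors did not separate the genotypes. *Smad7*, the inhibitory SMAD with the highest level per kb in this group, was at 12.8, 18.2 and 15.0 CPM in *ControlΔEC* and at 16.8, 16.8 and 21.4 CPM in *Wt1KOΔEC* (log2 difference 0.26, 95% interval −0.32 to 0.84). *Smad6*, which acts mainly on the BMP branch, had a log2 difference of 0.31 (95% interval −0.47 to 1.10). The ubiquitin ligases *Smurf1* and *Smurf2* had log2 differences of −0.14 (SE 0.29) and −0.47 (SE 0.27), the latter −0.18 without *ControlΔEC* replicate 1. *Smurf2* was highest in CPM in this group but not per kb. None of these intervals is narrow enough to show that the inhibitors had equal levels.

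The ID genes encode helix-loop-helix proteins that lack a DNA-binding domain and block other members of that family. *Id3* was the most abundant, at 506, 429 and 418 CPM in *ControlΔEC* and at 737, 634 and 627 CPM in *Wt1KOΔEC*. All 3 *Wt1KOΔEC* libraries were above all 3 *ControlΔEC* libraries. The log2 fold change was 0.56 (95% interval 0.22 to 0.90, adjusted p = 0.209 in edgeR, 0.00660 in DESeq2). It was just short of the limit of 0.58, so *Id3* was not a DEG in DESeq2. *Id2* was at 61.1, 98.0 and 96.2 CPM against 159, 123 and 185 CPM, again without overlap, with a log2 fold change of 0.87 (95% interval 0.35 to 1.39, adjusted p = 0.209 in edgeR, 0.0157 in DESeq2). *Id1* was at 98.5, 116 and 73.0 CPM against 154, 118 and 120 CPM. Its highest *ControlΔEC* and lowest *Wt1KOΔEC* libraries nearly touched, and the log2 fold change was 0.45 (95% interval −0.012 to 0.91, adjusted p = 0.393), or 0.29 without *ControlΔEC* replicate 3. *Id4* was low, at 7.02, 1.93 and 2.15 CPM against 1.84, 2.02 and 1.62 CPM, and its log2 fold change of −1.01 (SE 0.73) was −0.15 without *ControlΔEC* replicate 1. *Id1*, *Id2* and *Id3* were higher in *Wt1KOΔEC* under each of the normalizations tried.

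The summed level of the 4 ID genes was 357, 333 and 302 CPM per kb in *ControlΔEC* and 544, 456 and 471 CPM per kb in *Wt1KOΔEC*. *Id3* made up 79.1%, 71.9% and 77.1% of it in *ControlΔEC* and 75.6%, 77.6% and 74.3% in *Wt1KOΔEC*. The ratio of *Id3* to *Id1* per kb was 5.09, 3.67 and 5.67 against 4.74, 5.33 and 5.16, and that of *Id3* to *Id2* was 16.1, 8.52 and 8.45 against 9.02, 10.0 and 6.59, both with overlap. The share of *Id4* was small and did not overlap, at 0.427%, 0.126% and 0.155% in *ControlΔEC* and 0.0736%, 0.0964% and 0.0748% in *Wt1KOΔEC*. Within the *Wt1KOΔEC* libraries, the ID sum was highest in replicate 1, which also had the highest *Bmp2*, *Acvrl1* and *Id3* levels, while *Bmp4* was highest in replicate 2 and *Id2* in replicate 3. The part of the cells whose marker lists were higher in the *Wt1KOΔEC* libraries was not tested for the ID genes either.

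The genes also differed in length, and log2 fold changes were lower among the longer ones. Over the 35 genes, Spearman's rho of log2 fold change with exonic length was −0.37, and over 16238 tested genes with a length it was −0.10; genes are not independent replicates, and no test was made. When all genes tested were divided by exonic length into 5 classes of like size, from the shortest to the longest, the median log2 fold change was 0.093, 0.053, 0.0048, −0.037 and −0.17. *Id1* and *Id3* lie in the class of the shortest, with exonic lengths of 1775 and 1791 bases, and *Bmpr2* (18066 bases), *Acvr2a*, *Acvr2b* and *Smad2* in that of the longest. With offsets for length and GC content in the fit, 6 of the 35 genes (17.1%), or 5 of 34 (14.7%) without *Gdf2*, were at an unadjusted p under 0.05, against 12.8% of all genes tested. *Bmp2* was then at 1.27, *Id2* at 0.78 and *Id3* at 0.40, while *Id1* was at 0.29.

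**Figure D4:**
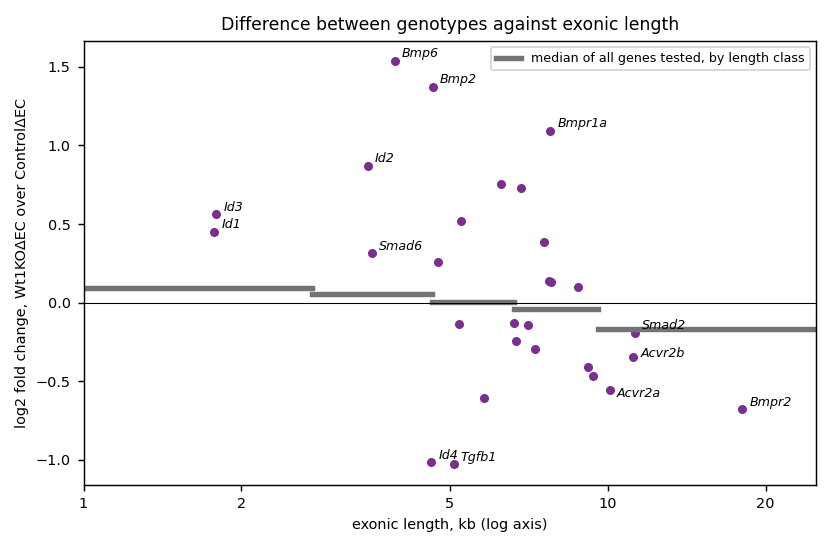
Fitted log2 fold change (*Wt1KOΔEC* over *ControlΔEC*) against exonic length in kb, on a log axis, for the 29 genes with more than 3 counts in every library; grey bars give the median of all genes tested in each of 5 length classes. The short *Id1* and *Id3* lie above 0 and the 4 longest genes below it, and the grey bars go from 0.093 down to −0.17.

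The gene positions given here are those of GENCODE vM39 on GRCm39. Chromosome 2, which carries *Wt1* at chr2:104956625-105003961, also carries 7 of the 38 genes, between 8.57 Mb (*Grem1*) and 72.4 Mb (*Eng*) from *Wt1*. The log2 fold changes of the 6 tested were 1.37 for *Bmp2*, 1.14 for *Bmp7*, 0.45 for *Id1*, 0.13 for *Eng*, −0.25 for *Acvr1* and −0.56 for *Acvr2a*, of which *Bmp2* and *Acvr2a* were at an unadjusted p under 0.05. Exonic bases shared with another annotated gene were found for 23 of the 38 genes, for 21 of them with a gene on the opposite strand.

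Other genes of the pathway were read from a list of 91 ligands, receptors, extracellular proteins, intracellular partners and targets. Of the 75 tested, 0 were DEGs in edgeR, 10 were higher and 3 lower at an unadjusted p under 0.05 (17.3%, against 13.1% of all genes tested), and DESeq2 called 7 as DEGs (9.59% of those with an adjusted p, against 4.83%); their median log2 fold change was 0.048. Among the targets, *Tgfbi*, a matrix protein named for its induction by TGF-β, was at 62.3, 82.1 and 87.5 CPM in *ControlΔEC* and at 133, 146 and 130 CPM in *Wt1KOΔEC* (log2 fold change 0.82, SE 0.17, adjusted p = 0.131). *Junb*, an immediate early gene and AP-1 subunit, was at 143, 125 and 99.8 CPM against 209, 218 and 208 CPM (0.78, SE 0.17, adjusted p = 0.140). Both were without overlap and DEGs in DESeq2. *Ccn2*, a matricellular target of TGF-β, had a log2 fold change of 1.03 (SE 0.36) and *Dcn*, a proteoglycan that binds TGF-β and is also on the fibroblast list, one of 0.97 (SE 0.29). The distant ligand *Gdf15* was higher by 1.43 (SE 0.38, adjusted p = 0.209 in edgeR, 0.00853 in DESeq2) and the co-repressor *Tgif2* by 0.74 (SE 0.20). On the lower side were *Tgfbrap1*, which binds TGF-β receptors, at −1.16 (SE 0.34), and *Zfyve9*, which encodes the SMAD anchor SARA, at −1.26 (SE 0.45). None of these passed the edgeR threshold.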

How the data were processed

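The 38 genes and all lists were chosen with earlier results of these data known. The authors aligned SMART-seq2 reads with STAR 2.7.8a and quantified genes with RSEM 1.3.0, and the deposited expected counts, whole numbers that were not normalized, were used as such. The paper gives GRCm39 with GENCODE vM27 as reference, the processing notes GRCm38; the counts carry no coordinates. Here, edgeR 4.0.16 in R 4.3.3 was fitted to genes that reached 10 counts in 2 or more libraries (TMM, quasi-likelihood F test, Benjamini-Hochberg over 16296 genes), with genotype as the only term; p-values measure the spread between these libraries. Alternatives were DESeq2 1.42.0 on all genes, limma-voom 3.58.1, other scalings and filters, the replicate number as block, each library left out, and, chosen after seeing the data, offsets for length and GC content (splines, 5 degrees of freedom) without and with that block. Standard errors are log2 fold changes divided by the root of F. Exonic lengths, used for CPM per kb, came from GENCODE vM39. Steps were tested on simulated data. Genes were named by rule: all 38, *Wt1*, and from the other pathway genes up to 8 by size among those at an unadjusted p under 0.05, without overlap and with a mean of at least 5 CPM. No protein sequences were used here.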

Additional observations from a re-analysis of the deposited data

How the results depend on the processing

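Of 210 log2 fold changes with 1 library left out, 199 kept direction and side of the threshold and 11, in 8 genes, changed sign; of 349 under the other alternatives, 335 did, 8, in 6 genes, changed sign, and 6 crossed the threshold. DEGs over all genes numbered 12, 767 in DESeq2, 296 without a filter, 5 with the replicate block and also 5 with offsets and block, and 2 (without *Wt1KOΔEC* replicate 3) to 41 (without *ControlΔEC* replicate 3) with a library left out. Among the 35 pathway genes there were 3 in DESeq2 and 3 without a filter, *Bmp2*, *Gdf2* and *Id2* in both, and 0 with any library left out. Without a filter, the adjusted p in edgeR was 0.00745 for *Bmp2* and 0.0304 for *Id2*. *Gdf2* had counts in *ControlΔEC* alone, so its p-value is not given as support. In DESeq2 the count was 2 of 33 without *Gdf2*. Unadjusted calls were 5 with offsets and block, and 5 to 11 with a library left out. Scaling by library size only shifted all genes by −0.15 and the pathway median to −0.053 (0.0084 to 0.15 with a library left out), and turned *Eng* (−0.014), *Tgfbr2* (−0.053), *Nog* (−0.10) and *Smad5* (−0.0093). *Smad9* was 0.81 in limma-voom, 0.39 with the block and 0.37 with offsets and block, and *Bmp7* −0.14 with both. With a library left out, *Bmp4* ranged from −0.045 to 0.94, *Bmp7* from −0.60 to 1.72, *Tgfb3* from −0.61 to 0.17, *Tgfbr1* from −0.28 to 0.049, *Tgfbr2* from −0.00114 to 0.19, *Nog* from −0.47 to 7.60, *Smad9* from −2.43 to 2.13 and *Smurf1* from −0.35 to 0.049. The causes were not tested. Whether replicate numbers pair the libraries stayed unsettled. Deviations of same-numbered libraries correlated at 0.0566, 0.00448 and 0.0201, and *ControlΔEC* replicates 2 and 3 correlated better with another number. Every pair lay between −0.0429 and 0.0566, and values this small cannot show pairing or its absence. The highest gene per kb was also highest in CPM in 7 of 9 roles.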
